A study of Mus musculus with 64 samples.

Results

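Alcohol and aldehyde dehydrogenases were followed here across 4 stages of mouse life: Adh1, Adh4, Adh5, Adh7, Aldh1a1, Aldh1a7, Aldh1b1, Aldh1l1, Aldh2 and Aldh3a2. The members were the rows of the count files that carried these symbols, and all 10 were found among the 23338 genes listed in every library. The study sequenced RNA from C57BL/6 mice, C57BL/6 J in the study's methods, to ask where in development male and female expression part. Single eight-cell embryos, taken at 2.5 days post-coital, comprised 6 males and 6 females from 4 litters. The embryonic stem (ES) cells comprised 2 male and 2 female lines grown in 2i medium, so each sex is represented by a pair of lines. Fetal livers came from late gestation and adult livers from mice of 15 to 20 weeks, with 12 males and 12 females at each age. The labels and methods name no genetic change and no treatment for any group. The sex of each embryo was assigned from its own expression of Xist and Eif2s3y, while ES lines and fetuses were typed by PCR. Embryo libraries were made with a single-cell amplification protocol and the others from total RNA with a stranded kit, so that stage and protocol cannot be told apart wherever embryos are compared.

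Alcohol dehydrogenases oxidise alcohols to aldehydes, and aldehyde dehydrogenases carry aldehydes on to carboxylic acids, in both cases with a nicotinamide cofactor as the electron acceptor. In liver the pair of steps is best known for clearing ethanol through acetaldehyde to acetate. The same families act on retinol and retinal, formaldehyde, lipid aldehydes and a folate, so that members differ in substrate and in the tissues that carry them.

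Levels are given as CPM, the reads on a gene per 1000000 reads on all genes of its library, after trimmed-mean scaling over all 64 libraries. Library totals ran from 1567583 to 10386931 reads, with adult livers the shallowest at 1567583 to 4757610 and ES lines the deepest at 9857929 to 10386931. A count of 0 allows up to 3 reads, which corresponds on average to 0.482 CPM in an embryo and covers counting error only. Xist and the Y-linked Ddx3y separated the labelled sexes without overlap in all 4 stages. Embryo labels were themselves set from Xist, so that its separation there was fixed in advance. Xist was low in the female ES lines, at 1.52 and 1.79 CPM. The 8 hepatocyte markers summed to at least 19724 CPM in every fetal liver and at least 49357 CPM in every adult liver, against at most 112 CPM in embryos and ES lines. The 6 pluripotency markers summed to 301 to 2055 CPM in embryos and ES lines and to at most 8.06 CPM in livers. In fetal livers the 4 hepatoblast markers summed to 16156 to 21735 CPM, against at most 3.70 CPM in adult livers. The erythroid markers found summed to 3580 to 5350 CPM in fetal livers and 19.1 to 242 CPM in adult livers. For the 6 neutrophil markers these sums were 1212 to 2513 CPM and at most 8.60 CPM. The part of these cells in the differences between fetal and adult liver was not tested. In 5 fetal livers (males 11 and 12, females 14, 15 and 24) the pancreatic acinar markers summed to between 88.9 and 712 CPM, and in female 14 the intestinal markers summed to 1553 CPM. The comparison of fetal sexes, that of adult with fetal liver and the stage by sex term were also computed without these 5. Fewer cells of a type and less RNA per cell cannot be told apart in bulk tissue.

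The 4 alcohol dehydrogenase members lie on chromosome 3 within 237.7 kb, in the order Adh7, Adh1, Adh4, Adh5, all on the plus strand. Their promoters are shown because these neighbours had very different levels in the same libraries. RefSeq promoter sequence was found for 9 of the 10 members (GRCm38.p6); each sequence below holds the 250 bases before the RefSeq start, 5′ to 3′ on the gene's own strand, at chr3:138217523-138217772 (Adh7), chr3:138277335-138277584 (Adh1), chr3:138415247-138415496 (Adh4) and chr3:138442843-138443092 (Adh5). Capitals mark matches on either strand to TATAAA (the TATA box), to GGGCGG (the GC box), to CCAAT (the CCAAT box) or to GTTAAT (part of an HNF1 site), which do not overlap one another in these windows.
Adh7: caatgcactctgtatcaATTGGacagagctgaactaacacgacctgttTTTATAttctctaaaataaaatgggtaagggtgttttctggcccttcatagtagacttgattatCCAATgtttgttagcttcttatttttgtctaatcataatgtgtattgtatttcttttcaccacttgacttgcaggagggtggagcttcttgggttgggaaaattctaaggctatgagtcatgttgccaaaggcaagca
Adh1: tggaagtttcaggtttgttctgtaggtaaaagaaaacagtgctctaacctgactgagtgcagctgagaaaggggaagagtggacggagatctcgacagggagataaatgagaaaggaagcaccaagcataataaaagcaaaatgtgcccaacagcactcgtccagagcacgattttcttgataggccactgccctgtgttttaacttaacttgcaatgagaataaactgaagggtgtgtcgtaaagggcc
Adh4: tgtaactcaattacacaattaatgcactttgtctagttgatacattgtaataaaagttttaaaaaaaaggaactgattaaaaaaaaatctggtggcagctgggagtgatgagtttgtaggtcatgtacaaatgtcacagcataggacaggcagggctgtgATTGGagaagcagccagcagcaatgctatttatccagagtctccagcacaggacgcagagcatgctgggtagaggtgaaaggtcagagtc
Adh5: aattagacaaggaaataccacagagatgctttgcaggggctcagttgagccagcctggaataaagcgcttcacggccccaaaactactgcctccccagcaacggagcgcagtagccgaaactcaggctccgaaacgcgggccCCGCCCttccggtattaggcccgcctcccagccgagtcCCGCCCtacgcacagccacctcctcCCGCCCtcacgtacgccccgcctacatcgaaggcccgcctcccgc
The Adh5 window held 3 GGGCGG matches, all on the opposite strand, and 21 CpG dinucleotides, while the Adh1, Adh4 and Adh7 windows held 5, 1 and 1. The median over the 32851 promoters of the table was 6 CpG dinucleotides, and 32.742% of those promoters held GGGCGG. Adh4 held 1 CCAAT and Adh7 held 2 CCAAT and 1 TATAAA, motifs present in 33.85% and 12.368% of all promoters. No window of the chromosome 3 group held GTTAAT, found in 6.432% of promoters, and the Adh1 window held none of the 4 motifs. The RefSeq start used for Adh1 lay 91 bases from the nearest main GENCODE start, against 2, 0 and 13 for Adh4, Adh5 and Adh7. These matches describe the letters and are not evidence of binding.

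The summed level of the 10 members was lowest in embryos and highest in adult liver. It was 57.0 ± 22.5 CPM in embryos (SD, n = 12), 396 ± 9.40 CPM in ES lines (SD, n = 4), 1315 ± 127 CPM in fetal liver (SD, n = 24) and 10437 ± 1368 CPM in adult liver (SD, n = 24). The make-up of that total also differed between stages when levels were divided by exon length. Adh5 held 92.4% of the summed CPM per kb in embryos and 72.4% in ES lines. Adh1 held 44.7% in fetal liver, followed by Adh5 at 26.9% and Aldh1b1 at 10.6%. In adult liver Adh1 held 39.3%, followed by Aldh1a1 at 18.96% and Aldh1l1 at 13.1%.

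**Figure D1:**
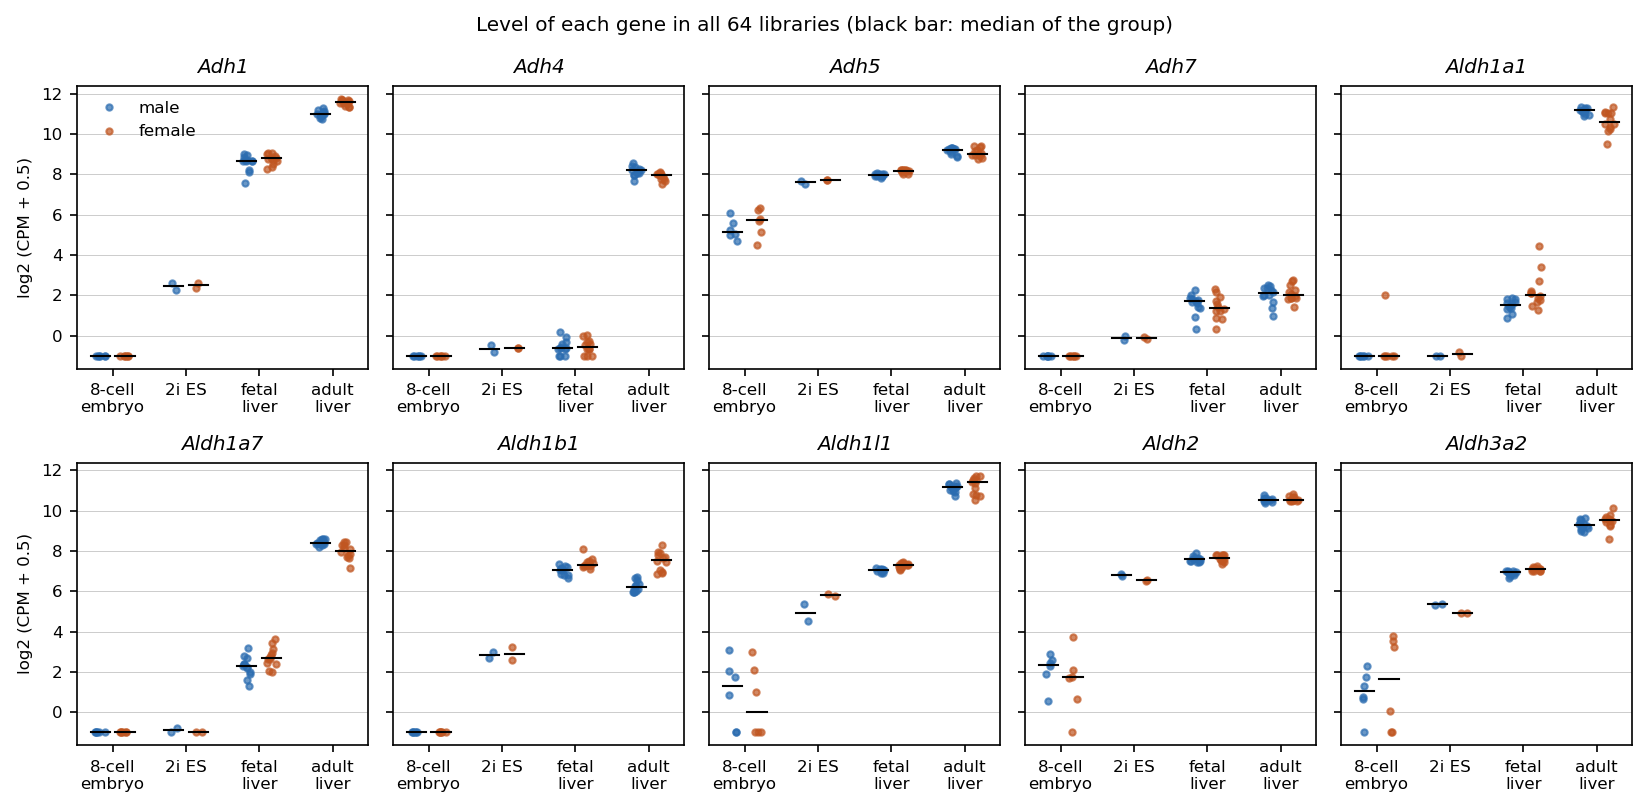
Log2(CPM + 0.5) of each of the 10 genes in the 64 libraries, by stage and sex; each point is 1 library and black bars are group medians. With the sexes pooled, adult liver has the highest mean for every gene apart from Aldh1b1, which is highest in fetal liver. Adh5 is the gene with reads in all 12 embryos.

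Between adult and fetal liver, 8 of the 10 genes rose and none fell. A stage difference was called at an adjusted p under 0.05 and a log2 fold change beyond 1 in edgeR's quasi-likelihood test with sex as a covariate; of the 13026 genes tested, 19.7% were called higher in adult liver and 23.7% lower. The median log2 fold change was 2.90 over the members and -0.05 over all genes; Adh4 passed the filter on low counts through adult liver alone and could only come out higher there. Scaling by library totals alone moved the median of all genes by -0.57 and the share of calls that were higher in adult liver from 45.4% to 23.9%; no member changed direction, and 7 of the 10 were then called.

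Adh1, the main ethanol-oxidising dehydrogenase of liver, was not detected in embryos, with 0 reads in all 12. The male ES lines had 4.38 and 5.52 CPM and the female lines 4.72 and 5.51 CPM. Fetal livers had a lowest, median and highest level of 192, 416 and 534 CPM, and adult livers 1755, 2560 and 3459 CPM. Each stage thus lay wholly above the one before. Against the embryo limit of 3 reads, Adh1 was at least 10.4-fold higher in ES lines, at least 862-fold higher in fetal liver and at least 5341-fold higher in adult liver. Adult exceeded fetal liver by a log2 fold change of 2.73 (SE 0.075, adjusted p = 2.42e-37).

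Adh4, an alcohol dehydrogenase with activity on retinol and larger alcohols, was nearly confined to adult liver among these 4 stages. Adult livers had 186, 262 and 380 CPM (lowest, median, highest). Fetal livers had between 0 and 5 reads each, 37 reads in all, with 6 of the 24 at 0. ES lines had 8 reads in all 4 libraries together and embryos had none. The level of a fetal liver, an ES line or an embryo was therefore at or near the limit of detection, and the adult to fetal log2 fold change of 10.30 (SE 0.12, adjusted p = 1.98e-55) rests on those 37 fetal reads. Relative to the embryo limit, adult liver was at least 552-fold higher.

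Adh5, the glutathione-dependent formaldehyde dehydrogenase carried by most cells, was the 1 member with reads in all 64 libraries. Male embryos had 25.4, 34.7 and 67.2 CPM (lowest, median, highest) and female embryos 21.9, 52.5 and 79.7 CPM. The male ES lines had 186 and 203 CPM and the female lines 210 and 214 CPM. Fetal livers had 230, 264 and 296 CPM and adult livers 440, 585 and 681 CPM. The ranges of the 4 stages did not overlap. The log2 fold change was 1.19 between adult and fetal liver (SE 0.042, adjusted p = 3.06e-33) and fell to 0.63, below the call, with library totals alone. Between fetal liver and ES lines it was 0.35 (SE 0.042, adjusted p = 3.97e-09), under the fold required.

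Adh7, a retinol-active dehydrogenase best known from the stomach and upper digestive tract, stayed low everywhere. It had 0 reads in all embryos, 23 reads over the 4 ES lines, 0.738 to 4.50 CPM in fetal liver and 1.43 to 6.17 CPM in adult liver. The liver ranges overlapped, and the adult to fetal log2 fold change of 0.74 (SE 0.16, adjusted p = 3.72e-05) did not reach the fold required.

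Aldh1a1, a cytosolic retinal dehydrogenase, and Aldh1a7, its rodent paralogue, went from a few reads to high levels between fetal and adult liver. Their genes lie on chromosome 19 within 234.8 kb on opposite strands, and 151 windows of 50 bases are shared between their transcripts, which is 3.06% of the Aldh1a1 windows and 7.49% of those of Aldh1a7; reads from these stretches cannot be assigned to one gene with certainty. The promoters are printed to show how alike this pair is, with the longest run common to both in capitals (250 bases before the RefSeq start, GRCm38.p6, chr19:20601718-20601967 on the plus strand for Aldh1a1 and chr19:20727557-20727806 on the minus strand for Aldh1a7).
Aldh1a1: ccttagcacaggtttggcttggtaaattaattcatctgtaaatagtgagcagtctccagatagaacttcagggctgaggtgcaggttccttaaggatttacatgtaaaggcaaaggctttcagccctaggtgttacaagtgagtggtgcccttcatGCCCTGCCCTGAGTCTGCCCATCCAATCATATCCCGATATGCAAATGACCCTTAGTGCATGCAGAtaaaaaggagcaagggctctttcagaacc
Aldh1a7: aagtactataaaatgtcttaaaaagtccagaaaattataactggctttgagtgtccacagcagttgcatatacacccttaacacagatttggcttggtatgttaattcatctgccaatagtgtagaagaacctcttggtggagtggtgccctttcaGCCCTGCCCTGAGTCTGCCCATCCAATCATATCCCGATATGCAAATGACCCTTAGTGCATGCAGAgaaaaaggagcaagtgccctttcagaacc
The common run was 65 bases long, from -94 to -30 relative to each start, and included a CCAAT on the gene's own strand at -72. An alignment of the windows matched 161 of 250 bases, or 64.4%, whereas the other 35 pairs of member promoters matched between 38.8% and 48.8%. Each of these windows held 1 CpG dinucleotide.

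Adult livers had 727, 2144 and 2657 CPM of Aldh1a1 (lowest, median, highest), and fetal livers 1.35, 2.78 and 21.2 CPM. The 4 ES lines had 1 read between them, and 11 of the 12 embryos had none. Every adult liver was above every fetal liver, with a log2 fold change of 9.09 (SE 0.25, adjusted p = 4.29e-34). Aldh1a7 had 143, 318 and 389 CPM in adult liver and 1.99, 4.82 and 11.8 CPM in fetal liver, again without overlap, and its log2 fold change was 5.87 (SE 0.14, adjusted p = 6.99e-38). It had 1 read in the 4 ES lines and none in embryos, so that adult liver was at least 629-fold higher than the embryo limit.

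Aldh1b1 and Aldh2 are mitochondrial enzymes that act on acetaldehyde, and their courses differed. Aldh2, the principal acetaldehyde dehydrogenase, had 0 to 12.5 CPM in embryos, 108 and 115 CPM in male and 90.1 and 94.8 CPM in female ES lines, 160 to 240 CPM in fetal liver and 1345 to 1789 CPM in adult liver. Adult exceeded fetal liver by a log2 fold change of 3.08 (SE 0.040, adjusted p = 8.04e-54). Aldh1b1 had 0 reads in all embryos, 5.96 and 7.29 CPM in male and 5.51 and 8.76 CPM in female ES lines, and 102, 150 and 274 CPM in fetal liver (lowest, median, highest). Its adult range of 61.8, 110 and 311 CPM enclosed the fetal one and joined male and female ranges that did not overlap. With the sexes pooled, Aldh1b1 was the 1 member whose mean was highest in fetal liver. Its adult to fetal log2 fold change was -0.18 (SE 0.11, adjusted p = 0.124), which did not pass the test. The sexes went opposite ways. The mean was 132 CPM in fetal and 77.1 CPM in adult males, against 171 CPM in fetal and 189 CPM in adult females.

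Aldh1l1, the formyltetrahydrofolate dehydrogenase of the cytosol, had 0 to 7.94 CPM in embryos, with 5 of 12 at 0. Male ES lines had 22.2 and 40.4 CPM and female lines 54.6 and 57.0 CPM, fetal livers 121 to 172 CPM and adult livers 1499 to 3399 CPM. These ranges did not overlap, and the adult to fetal log2 fold change was 4.18 (SE 0.069, adjusted p = 5.15e-49). A part of its sequence, 56 windows of 50 bases, is shared with the annotated gene Gm45901. Aldh3a2, the fatty aldehyde dehydrogenase of the endoplasmic reticulum, had 0 to 13.3 CPM in embryos, 39.3 and 40.9 CPM in male and 30.0 and 30.2 CPM in female ES lines, 101 to 152 CPM in fetal liver and 393 to 1110 CPM in adult liver. Its adult to fetal log2 fold change was 2.54 (SE 0.062, adjusted p = 8.67e-41).

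Earlier steps of the order were tested in the same way. Between fetal liver and ES lines, 7 of 9 members tested were higher and none lower, beside 32.8% and 23.7% of the 14858 genes tested. Adh7, Aldh1a1 and Aldh1a7 did not pass the filter within ES lines and entered through fetal liver, where they are higher, so these 3 add nothing to the count. The log2 fold changes that passed included 6.31 for Adh1 (SE 0.25, adjusted p = 3.79e-20), 4.40 for Aldh1b1 (SE 0.19, adjusted p = 1.07e-19) and 1.70 for Aldh1l1 (SE 0.11, adjusted p = 1.15e-15). Aldh2, at 0.90 (SE 0.081, adjusted p = 7.09e-12), and Adh5 were below the fold required although no fetal liver overlapped an ES line for either gene. All 10 members were higher in adult liver than in ES lines, of which Adh4, Adh7, Aldh1a1 and Aldh1a7 passed the filter through adult liver alone, beside 33.1% of 13102 genes higher and 32.3% lower; with library totals alone the median of all genes moved by -0.72, the share of higher calls went from 50.6% to 35.7%, and Adh5 at 0.78 was no longer called. Adh5 was otherwise the smallest of the 10, at 1.50 (SE 0.096, adjusted p = 9.07e-17).

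Between ES lines and embryos, 6 members passed the filter on low counts, which keeps a gene with enough reads in either stage. Adh1 and Aldh1b1 had 0 reads in every embryo and passed through the ES lines alone, so that their direction was fixed by the filter. Aldh1l1 was not kept by the filter for the embryo sex comparison, with 0 reads in 5 of 12 embryos and at most 57 reads. The filter of the present comparison asked for enough reads in 2 libraries, the size of the smallest group, which embryos also met. Adh5, Aldh1l1, Aldh2 and Aldh3a2 were each called higher in ES lines, beside 32.1% of the 13511 genes tested. Adh5 had a log2 fold change of 2.13 (SE 0.26, adjusted p = 3.61e-06) and Aldh2 of 4.65 (SE 0.61, adjusted p = 6.72e-06). Aldh3a2 had 3.57 (SE 1.06, adjusted p = 0.00883). Aldh1l1 had 4.18 (SE 1.13, adjusted p = 0.0046). Aldh1b1 was at least 14.3-fold higher in ES lines than the embryo limit. Scaling by DESeq2 size factors or by library totals moved the median of all genes in this comparison by 0.32 and 0.36, and no member changed direction.

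Within adult liver, Adh1 and Aldh1b1 were higher in females and no member was called higher in males. A sex difference was called at an adjusted p under 0.1 and a log2 (male/female) beyond 0.5; 6.48% of the 10372 genes tested were called higher in females and 3.01% higher in males, and 9 of the 10 members were tested. The male and female ranges did not overlap for the same 2 members, beside 2.53% of all genes tested.

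Male adult livers had 1755, 2072 and 2545 CPM of Adh1 (lowest, median, highest), and females 2575, 3067 and 3459 CPM. Every female was above every male, by a log2 (male/female) of -0.56 (SE 0.055, adjusted p = 1.17e-09), a 1.47-fold higher level in females. For Aldh1b1, males had 61.8, 72.9 and 104 CPM and females 117, 188 and 311 CPM, again with every female above every male. Its log2 (male/female) was -1.30 (SE 0.14, adjusted p = 1.12e-07), a 2.46-fold higher level in females. The share of sequenced records that fell on genes also differed by sex, from 26.8% to 38.7% in males and from 36.8% to 46.7% in females. With that share as a covariate, Adh1 had -0.47 (SE 0.087, adjusted p = 4.03e-04), under the fold required, and Aldh1b1 had -0.96 (SE 0.22, adjusted p = 0.00705), still called.

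**Figure D2:**
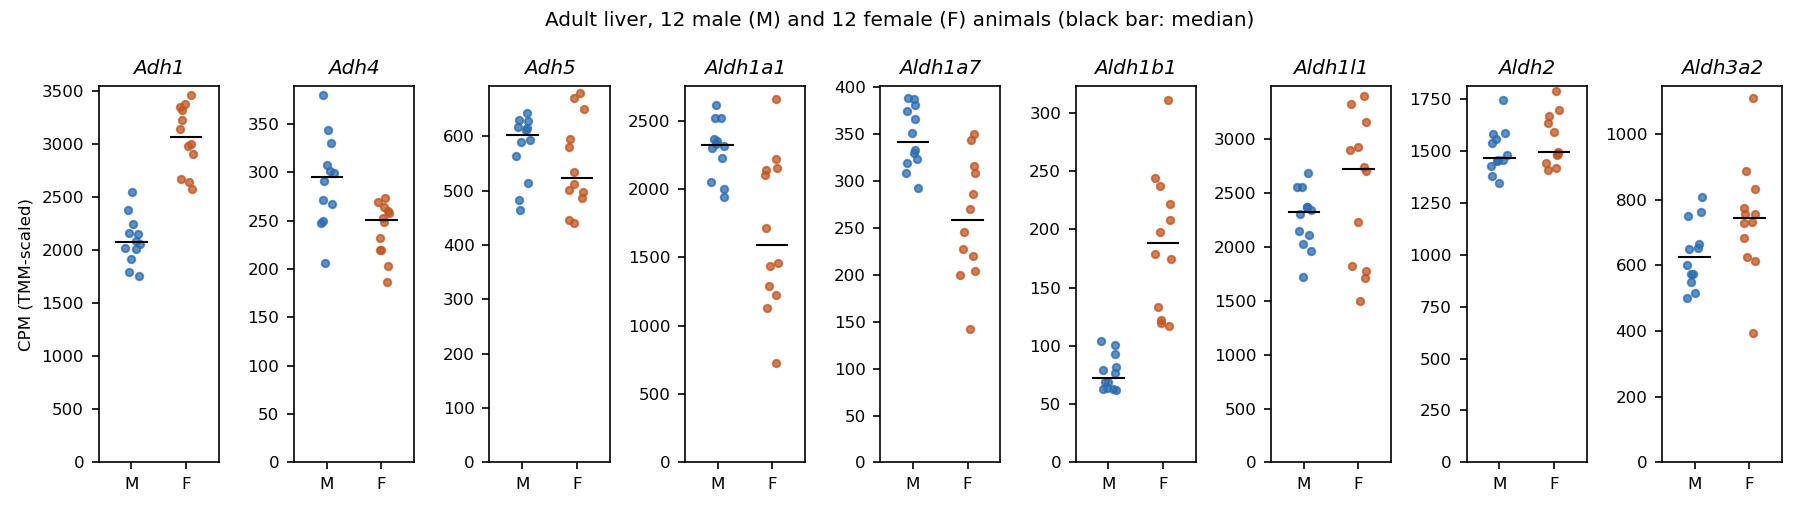
CPM of the 9 members tested in 12 male and 12 female adult livers (linear axes starting at 0); points are livers and bars the median. Male and female points do not overlap for Adh1 and Aldh1b1, and the female points of Aldh1a1 spread from 727 to 2657 CPM against 1940 to 2617 CPM in males.

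Adh4, Aldh1a1 and Aldh1a7 leaned to males and passed the adjusted p but not the fold. Aldh1a1 had 1940, 2322 and 2617 CPM in males and 727, 1588 and 2657 CPM in females, with a log2 (male/female) of 0.43 (SE 0.15, adjusted p = 0.0307). Aldh1a7 had 293, 342 and 389 CPM in males and 143, 258 and 351 CPM in females, with 0.40 (SE 0.097, adjusted p = 0.0024). For both genes most females were below every male, 7 of 12 for Aldh1a1 and 8 of 12 for Aldh1a7. Adh4 had 206, 295 and 380 CPM in males and 186, 251 and 274 CPM in females, with 0.26 (SE 0.078, adjusted p = 0.0115). Over 8 alternatives to the edgeR fit, the adjusted p of Aldh1a1 reached 0.494, so that whether it passed depended on the setting. Those of Aldh1a7 and Adh4 reached 0.0729 and 0.0824.

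Adh5, Aldh1l1, Aldh2 and Aldh3a2 did not pass the adjusted p in adult liver. Aldh2 had the smallest coefficient of variation of the 9 in both sexes, with 1345, 1467 and 1742 CPM in males and 1409, 1492 and 1789 CPM in females, and a log2 (male/female) of -0.06 (SE 0.046, adjusted p = 0.362). Aldh1l1 had 1722, 2323 and 2690 CPM in males and 1499, 2723 and 3399 CPM in females, with -0.16 (SE 0.11, adjusted p = 0.298). Aldh3a2 had 499, 625 and 809 CPM in males and 393, 743 and 1110 CPM in females, with -0.24 (SE 0.11, adjusted p = 0.113). In both of these genes the female range enclosed the male range. Adh5 had 464, 603 and 642 CPM in males and 440, 523 and 681 CPM in females, with 0.06 (SE 0.064, adjusted p = 0.506). Adh7 was below the filter on low counts and was not tested.

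Marker sums of hepatocytes and other cells also leaned to a sex in adult liver, with ranges that overlapped apart from the erythroid list. The Kupffer cell markers, all 6 in the files, summed to 371 to 661 CPM in males and 497 to 1107 CPM in females, and the 8 hepatocyte markers to 49357 to 57889 CPM in males and 55994 to 69984 CPM in females. The endothelial markers summed to 450 to 541 CPM in males and 512 to 656 CPM in females. Stellate markers summed to 565 to 940 CPM in males and 732 to 1096 CPM in females. The erythroid list, of which 9 of 12 genes were in the files, summed to 188 to 242 CPM in males and 19.1 to 56.8 CPM in females, with Hba-a1, Hba-a2, Hbb-b1 and Hbb-b2 at 0 reads in every adult liver. The erythroid sum thus rests on the other genes of that list. Acinar markers reached at most 2.20 CPM. The part of these values in the differences between the sexes was not tested.

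Adult females varied more than males in several members. The coefficient of variation of Aldh1a1 was 33.6% in females and 9.21% in males, that of Aldh1l1 26.9% and 12.4%, and that of Aldh1a7 24.6% and 9.49%; the difference in spread was not tested. Female 18, which stood apart on the second principal component of the female livers, had the lowest female level of Adh1, Aldh1a1, Aldh1a7, Aldh2 and Aldh3a2 and the highest of Aldh1b1. Without this animal Aldh1a1 had a log2 (male/female) of 0.36 (adjusted p = 0.0213) and Aldh1b1 of -1.21 (adjusted p = 2.71e-08). The first component spread the females between 2 ends. Without the 4 at its positive end (19, 20, 22 and 23), Adh1 and Aldh1b1 were still called, and Aldh1a1 had 0.31 (adjusted p = 0.177); the 4 at the negative end (13, 14, 15 and 16) were not left out in turn, so the Aldh1a1 value reflects a one-sided choice.

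In fetal liver, Aldh1a1 was the 1 member of 9 tested that was called, and it was higher in females. Of the 12930 genes tested, 0.828% were called higher in females and 3.81% higher in males. Males had 1.35, 2.39 and 3.11 CPM of Aldh1a1 and females 1.95, 3.60 and 21.2 CPM, so that 8 of 12 females were above every male, at a level of at most 171 reads. The log2 (male/female) was -1.18 (SE 0.35, adjusted p = 0.013). The highest female was replicate 14, the liver with intestinal markers, and without it the value was -0.73 (adjusted p = 0.0137). Without all 5 livers with acinar or intestinal markers it was -0.71 (adjusted p = 0.0393), still called.

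The share of records on genes did not overlap between the sexes in fetal liver, at 38.7% to 44.2% in males and 44.9% to 47.6% in females. With that share as a covariate, Aldh1a1 had -0.81 (SE 0.62, adjusted p = 0.849) and was not called, and 11 genes were called in all in place of 600. The sex difference in fetal liver and the difference in this share cannot be told apart.

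The other fetal members differed little between the sexes. With Aldh1a1 included, 8 of the 9 tested had a log2 (male/female) below 0. The median of the 9 was -0.17, beside -0.03 over all genes. Aldh1b1 had 102, 134 and 162 CPM in males and 138, 159 and 274 CPM in females, with -0.35 (SE 0.10, adjusted p = 0.0092). Aldh1l1 had 121, 132 and 144 CPM in males and 132, 158 and 172 CPM in females, with -0.22 (SE 0.042, adjusted p = 2.49e-04). Adh5, at -0.16 (SE 0.031, adjusted p = 3.35e-04), and Aldh3a2, at -0.17 (SE 0.041, adjusted p = 0.00237), likewise passed the adjusted p but not the fold. Aldh1a7 had -0.50 (SE 0.21, adjusted p = 0.0754), just short of the fold required, and DESeq2 called it at -0.50 (adjusted p = 0.0691). No member had male and female ranges that did not overlap, beside 1.80% of all genes tested. Adh1, with 192 to 511 CPM in males and 310 to 534 CPM in females, had -0.13 (SE 0.12, adjusted p = 0.449).

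By the stage by sex term, the sex difference of 3 members differed between adult and fetal liver. The share of records on genes, which differed between the sexes at both ages, was not a covariate of this term. Its fetal part therefore cannot be told apart from that share. The stage by sex term, adult log2 (male/female) minus the fetal one, was called under the same thresholds for 13.7% of the 13026 genes tested. It was 1.64 for Aldh1a1 (SE 0.37, adjusted p = 9.29e-04), which leaned to females in fetal liver and to males in adult liver, and 1.20 without the 5 fetal livers with acinar or intestinal markers. Aldh1a7 had the same pair of directions, with 0.94 (SE 0.23, adjusted p = 0.00166). Aldh1b1, below 0 at both ages and called in adults alone, had -0.90 (SE 0.17, adjusted p = 1.13e-04), the adult value being further below 0. Adh1, at -0.38 (SE 0.13, adjusted p = 0.0259), and Adh5, at 0.27 (SE 0.073, adjusted p = 0.00428), passed the adjusted p and not the fold.

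**Figure D3:**
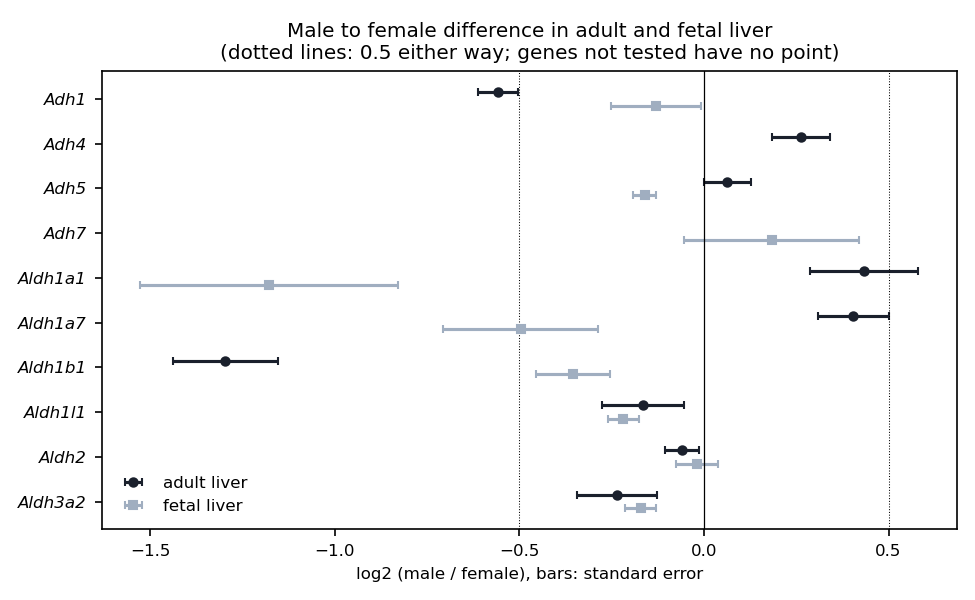
Log2 (male/female) of each member in fetal and adult liver from edgeR, with bars of 1 standard error; values above 0 are higher in males. Aldh1a1 lies at -1.18 in fetal and 0.43 in adult liver, and Aldh1b1 at -0.35 and -1.30.

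In ES lines, edgeR called 0 of the 6 members tested, with 3 at an unadjusted p under 0.05, and DESeq2 called 1; 9.50% of the 12678 genes tested were called. That gene was Aldh1l1, at 22.2 and 40.4 CPM in male and 54.6 and 57.0 CPM in female lines, with a log2 (male/female) of -0.82 in edgeR (SE 0.27, adjusted p = 0.145) and -0.82 in DESeq2 (adjusted p = 0.0215). The edgeR value was -1.30 (adjusted p = 2.05e-10) without replicate 2, the male line with 40.4 CPM, and then passed. Without replicate 1, the male line with 22.2 CPM, it was -0.46 (adjusted p = 3.90e-04), under the fold required. Aldh3a2, at 0.43 (SE 0.10, adjusted p = 0.0806), and Aldh2, at 0.29 (SE 0.085, adjusted p = 0.122), were higher in both male lines than in either female line and were not called. With 2 lines a sex, sex and the origin of a line cannot be told apart.

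In embryos, neither edgeR nor DESeq2 called a member, and 0 of the 3 tested had an unadjusted p under 0.05 in edgeR; 0.264% of the 9087 genes tested were called. Adh5 had a log2 (male/female) of -0.40 (SE 0.35), Aldh2 of 0.16 (SE 1.09) and Aldh3a2 of -1.57 (SE 1.38), each with an adjusted p of 0.999936. The standard errors show that only a large difference would have been detectable for the last pair of genes, whose counts were at most 93 reads in an embryo.

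Many pairs of members varied together from animal to animal in adult liver, though no value over all gene pairs was set beside them. Correlations were computed across the 24 livers of a stage after the mean of each sex was subtracted, on log2(CPM + 0.5), and are descriptive; livers of a stage share library preparation, and depth differs among them. Over the 36 pairs of the 9 members above 10 CPM in adult liver, Pearson's r had a median of 0.52 and ran from -0.18 to 0.84, with 19 pairs above 0.5. The highest pair was Aldh1a1 with Aldh1a7, at 0.84 (0.60 within males and 0.87 within females), and the second was Aldh1a1 with Aldh3a2, at 0.81 (0.88 and 0.85). Aldh1b1 with Aldh3a2 was the lowest, at -0.18. Some pairs had a higher r within females, such as Adh1 with Aldh2 (0.26 within males and 0.80 within females). Others had a higher r within males, such as Adh1 with Adh4 (0.59 within males and 0.15 within females). In fetal liver, 15 pairs of 6 members had a median of 0.08 and a range of -0.46 to 0.70; the highest was Adh1 with Adh5, at 0.70, and Adh1 with Aldh1b1 was the lowest, at -0.46. The difference between the stages was not tested.

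**Figure D4:**
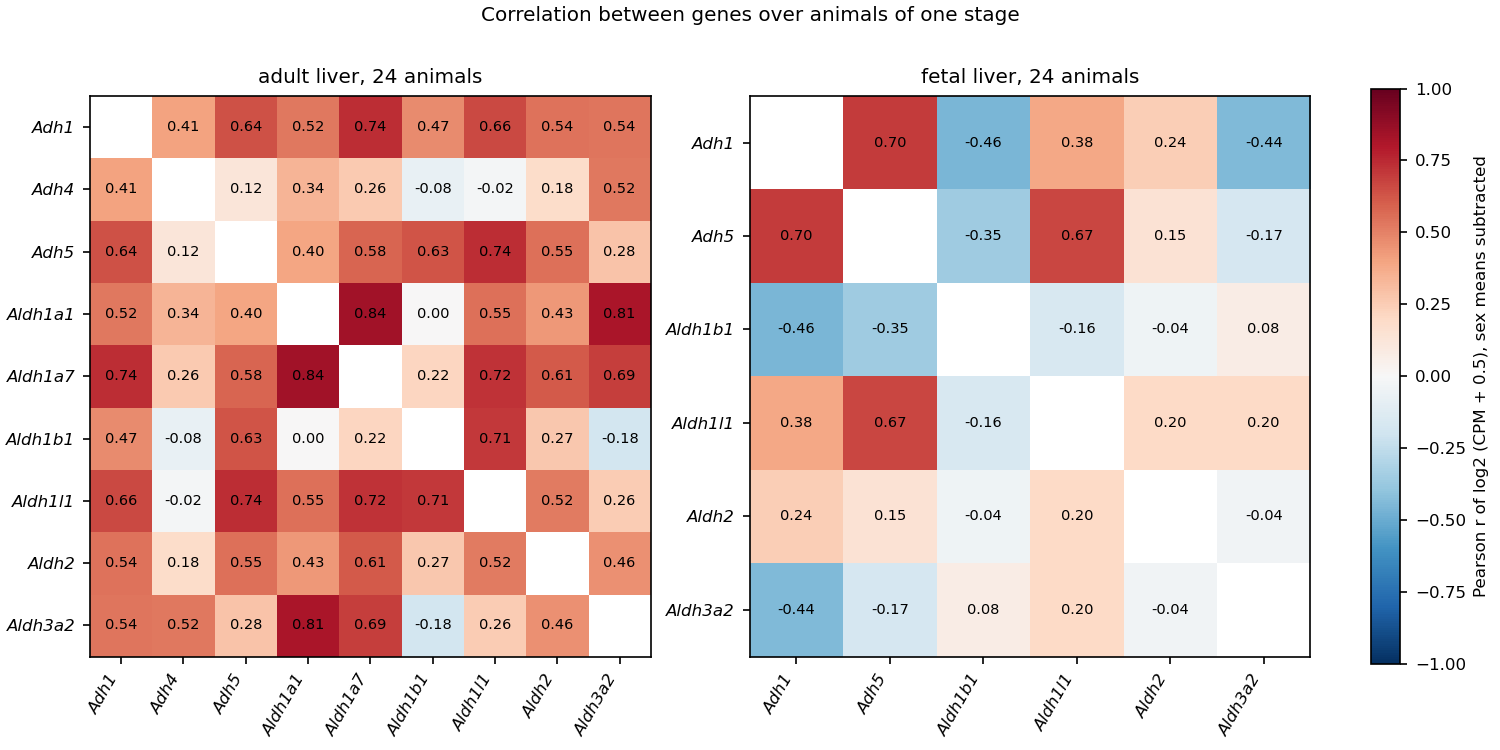
Pearson's r between members on log2(CPM + 0.5) with sex means subtracted, across 24 adult livers and across 24 fetal livers; the colour scale gives r. Adult pairs run from -0.18 to 0.84 and fetal pairs from -0.46 to 0.70.

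Among all 10372 genes tested in adult liver, the gene whose level followed a member most closely over the 24 livers differed for every member. For Adh1 it was Serhl (Pearson's r = 0.90), for Adh4 Phldb2 (r = 0.78) and for Adh5 Acaa2, a thiolase of mitochondrial fatty acid oxidation (r = 0.93). For Aldh1a1 it was Entpd5 (r = 0.92) and for Aldh1a7 the carboxylesterase gene Ces2e (r = 0.92). Aldh1b1 was followed by Agxt, a peroxisomal aminotransferase (r = 0.84), Aldh1l1 by Gpt, alanine aminotransferase (r = 0.95), Aldh2 by Tmbim6 (r = 0.83) and Aldh3a2 by the bile acid transporter gene Slco1b2 (r = 0.91). By Spearman's rho another gene ranked highest for 5 of these 9 members, so that the top place is not firm.

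Genes of the same and adjoining pathways were described from lists, by counts. Among other alcohol and aldehyde dehydrogenase genes, 9 rose and 4 fell of 13 tested between fetal and adult liver, with a median log2 fold change of 1.52; with library totals alone 6 rose and 4 fell. Of this list, 9 genes passed the filter within adult liver and 13 within fetal liver. A gene that entered through 1 stage alone could only come out higher there. The counts of this list and those below do not separate such genes. Aldh8a1, a dehydrogenase of the kynurenine pathway, rose by 2.83 (SE 0.035, adjusted p = 7.07e-55), while Aldh18a1, of proline synthesis, had -4.37 (SE 0.18, adjusted p = 2.67e-27). The retinoid list had 13 up and 3 down of 24, the ethanol and acetate list 4 up and 1 down of 5, the folate and formaldehyde list 6 up and 2 down of 11, and the carbonyl reductase list 9 up and 1 down of 11. Over all genes tested, 19.7% were called higher in adult liver and 23.7% lower. In the same order, the list medians were 1.27, 2.51, 1.06 and 1.55, beside -0.05 over all genes. With library totals alone they were 0.70, 1.95, 0.49 and 0.98, beside -0.61. In the ethanol list, Cyp2e1, the microsomal ethanol oxidase, had a mean of 20.5 CPM in fetal and 4866 CPM in adult liver, a log2 fold change of 8.02 (SE 0.20, adjusted p = 4.41e-36). Acss1, the mitochondrial acetyl-CoA synthetase, went the other way, from 131 to 0.673 CPM, at -7.47 (SE 0.12, adjusted p = 3.76e-49). At that adult level Acss1 passed the filter on low counts through fetal liver alone and could only come out lower in adult liver.

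**Figure D5:**
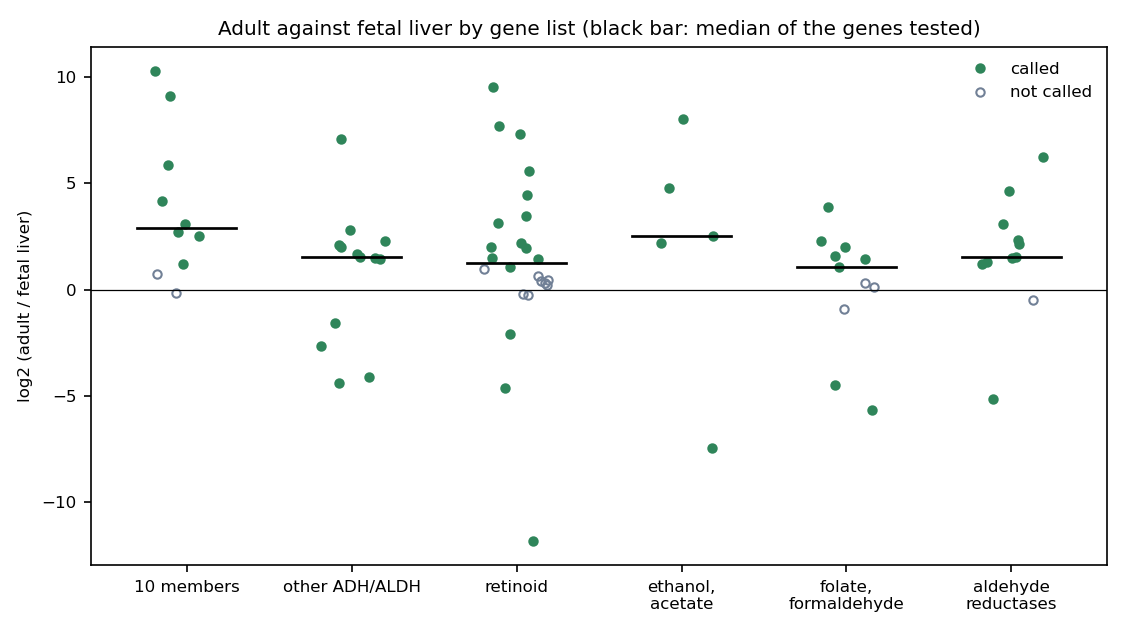
Log2 (adult/fetal) of each gene tested in the members and 5 related lists; each point is 1 gene, filled where called, and black bars are medians. The median is 2.90 for the members and lies between 1.06 and 2.51 for the lists.

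Between the sexes of adult liver, the retinoid list had 2 genes higher in males and 6 higher in females of 22 tested. Beside this list and those below, 3.01% of all genes tested were called higher in males and 6.48% higher in females. Aox3 and Aox1, aldehyde oxidases that can act on retinal, were at means of 2485 and 323 CPM in males and 718 and 160 CPM in females, with a log2 (male/female) of 1.78 (SE 0.079, adjusted p = 3.04e-18) and 1.00 (SE 0.074, adjusted p = 1.42e-12). The retinoic acid receptor gene Rarb had -0.91 (SE 0.18, adjusted p = 1.89e-04) and the retinol dehydrogenase gene Rdh9 -0.73 (SE 0.15, adjusted p = 7.23e-04). With the share of records on genes as a covariate, the same 2 genes were higher in males and 0 were higher in females at the thresholds, although 6 of the 22 had an unadjusted p under 0.05 in either direction.

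In the other lists, Adh6-ps1, an annotated pseudogene that shares 4 windows of 50 bases with Adh1, was the 1 family gene called of 9, at 112 CPM in males and 34.3 CPM in females (log2 1.71, SE 0.20, adjusted p = 5.23e-07), the direction opposite to Adh1. Acss3 and Acss2, which activate short-chain acids to their coenzyme A esters, were higher in females among 4 ethanol and acetate genes, at -1.78 (SE 0.17, adjusted p = 1.80e-08) and -0.87 (SE 0.25, adjusted p = 0.0127). With the share of records on genes as a covariate, Acss3 was still called and Acss2 was not, at -0.29 (adjusted p = 0.769). Cyp2e1 had -0.03 (SE 0.077, adjusted p = 0.848). The folate list had 1 of 9 called, Mthfs, at -0.53 (SE 0.13, adjusted p = 0.0035), which was called neither with that covariate, at -0.43 (adjusted p = 0.308), nor without the filter on low counts, at -0.4997 (adjusted p = 0.00657). The reductase list had 1 of 10 higher in males, Akr7a5, at 0.51 (SE 0.076, adjusted p = 4.17e-06), and 2 higher in females, Cbr1 and Akr1b8, at -0.72 and -0.74; with the covariate Akr1b8 had -0.83 (adjusted p = 0.123) and was not called. In fetal liver, the same lists had 1 call, Aldh1a2, a retinal dehydrogenase, at -0.70 (SE 0.31, adjusted p = 0.0876), which was not called without the 5 livers with acinar or intestinal markers. Over all genes tested in fetal liver, 0.828% were called higher in females and 3.81% higher in males.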

How the data were processed

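RNA-seq counts were analysed from 64 libraries: 12 embryos, 4 ES lines, 24 fetal livers and 24 adult livers. The authors aligned reads to mm10 with TopHat2 2.0.4 and Bowtie2 2.1.0, removed duplicates, and counted reads per gene with HTSeq; the submitters' processing notes also name SAMtools 0.1.18. The deposited values are raw counts, and HTSeq's strand setting is not given in the sources used here. 5 summary lines per file were left out; they held 28.0% to 73.2% of records. Depth is the total on genes, 1567583 to 10386931 reads.

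Groups came from the labels. Nothing maps embryos or fetuses to litters, or libraries to lanes. edgeR 4.0.16 (R 4.3.3; TMM, filterByExpr, robust quasi-likelihood fits, two-sided tests, Benjamini-Hochberg over all genes tested) was fitted for each pair of sexes or stages and for the stage by sex term over 48 livers. Standard errors were derived from the F statistic. Alternatives were DESeq2 1.42.0, its size factors in edgeR, library totals alone, no filter, the share of records on genes as a covariate, adjusted p alone, a replicate block and left-out libraries, some chosen after seeing the data. The code was tested on simulated data.

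The members and lists were chosen with earlier results of these data known, and all 10 members are reported; list genes are named by smallest adjusted p or a call between adult sexes, at most 4 a list, beyond which Adh6-ps1 and Aldh1a2 were the sole calls of their list. Promoters were RefSeq's (GRCm38.p6) and gene positions GENCODE's.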

Additional observations from a re-analysis of the deposited data

Results flagged for a closer look

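In embryos, 1 library stood far from the rest of its group for each of 2 genes. The 9 groups of 4 to 10 samples that were tested were all groups of 6 embryos. Chance marks about 1 group in 20 where values are normally distributed, and this rate does not hold for counts with many zeros. A group with reads in 1 library alone, as for Aldh1a1, is always marked. Aldh1a1 had 3.57 CPM, from 20 reads, in female embryo 10 and 0 reads in the other 5 female embryos and in all 6 males. Aldh2 had 12.5 CPM, from 72 reads, in female embryo 9, and the next female had 3.71 CPM.

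The male to female difference of 3 genes differed between adult and fetal liver by the stage by sex term. The share of records on genes, which also differed between the sexes, was not a covariate of that term. Adult minus fetal log2 (male/female) was 1.64 for Aldh1a1, 0.94 for Aldh1a7 and -0.90 for Aldh1b1. Fetal levels of Aldh1a1 and Aldh1a7 were at most 21.2 and 11.8 CPM, so that their fetal differences rest on few reads.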

How the results depend on the processing

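Across 533 values of single members under alternatives, 507 kept their direction and their side of the threshold, 12 passed it, 4 lost it and 10 changed sign; those that changed sign were not called in either setting. They were Adh5 in adult sex (-0.0169 without the 4 females at the positive end of the first component), Aldh2 in fetal sex (0.13 with the share of records on genes as a covariate), Adh1 in ES sex with library totals alone (0.0042), Adh1 and Aldh1b1 in ES sex with a line left out (ranges -0.22 to 0.13 and -0.39 to 0.28; changed values 0.13, 0.08, 0.05 and 0.28), and the Aldh2 interaction (-0.0131 in DESeq2, -0.0141 with DESeq2 size factors and -0.0446 without female 18). Members called in adult sex numbered 1 with the covariate and 5 on adjusted p alone, against 2. In fetal sex they numbered 2 in DESeq2, 0 with the covariate (3 at an unadjusted p under 0.05) and 6 on adjusted p alone, against 1. In ES sex they numbered 1 in DESeq2, 1 on adjusted p alone and 0 to 1 with a line left out, against 0. All genes called in adult sex numbered 1518 without a filter, 614 with the covariate and 3400 on adjusted p alone, against 984; in fetal sex 1057, 11 and 4807, against 600. In ES sex they ran from 0 to 3070 with a line left out, against 1205: 0 without female line 3 or 4 (1290 and 1163 genes at an unadjusted p under 0.05 in edgeR), 2606 without male line 1 and 3070 without male line 2. A sex left with 1 line is assumed to vary like the other. DESeq2 called 80 genes in embryos, against 24. The summed level of the 10 members was 529 CPM in ES lines, 1480 CPM in fetal and 8627 CPM in adult liver with library totals alone, and 344 CPM in ES lines and 11853 CPM in adult liver with DESeq2 size factors. The cause of these changes was not tested.

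Fetal and adult livers share replicate numbers and nothing else: over 24 pairs, deviations correlated between -0.19 and 0.10 (median -0.02), and 0 livers correlated best with their own number. With the replicate number as a block, 1661 genes were called for the interaction against 1787, and 5648 between adult and fetal liver against 5653, with 3 and 8 members called in either fit.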
